A study of Mus with 9 samples.

Results

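Tubule injury markers and the keratins of simple epithelium were measured as 10 genes in kidneys of male C57BL/6 mice by bulk RNA sequencing. The genes were taken by name: the injury markers Havcr1, Lcn2, Spp1, Vcam1 and Cd44, and the keratins Krt7, Krt8, Krt18, Krt19 and Krt20. No cutoff on level was used, but earlier results of these data were known when the names were chosen. They were 10 of the 54532 genes in the count table, and all 10 were among the 15902 genes that passed the filter on low counts and were tested. All 10 reached the filter's minimum in 4 or more of the 6 libraries outside the 21 mo group.

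There were 3 groups of 3 mice, with 1 kidney library per mouse. The labels name the strain and no genetic change, and every mouse had lost 1 kidney by unilateral nephrectomy at 18 months of age. The 18 mo mice were killed 1 week after that surgery. The 21 mo mice then received saline intraperitoneally each day for 12 weeks, and the 21 mo/O304 mice received O304, a small-molecule activator of AMP-activated protein kinase (AMPK), at 10 mg/kg per day by the same route for 12 weeks. The 21 mo vs 18 mo comparison asks what differs with age, but time since surgery and the injections differed along with age and cannot be told apart from it. The 21 mo/O304 vs 21 mo comparison asks what differs with the compound, and both comparisons rest on the same 3 saline mice.

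A tubule cell that is injured loses transport functions and switches on a set of genes that are low in the healthy nephron. Some of the products are shed or secreted and are read as urine or blood markers of kidney damage, and others sit on the cell surface, where they bind dying cells, matrix or leukocytes. Keratins are intermediate filament proteins that assemble only as pairs of a type II chain (Krt7, Krt8) with a type I chain (Krt18, Krt19, Krt20). Krt8 and Krt18 are the usual pair of simple epithelia, Krt7 and Krt19 mark ducts and urothelium, and Krt20 is a keratin of intestinal epithelium and of the surface cells of the urothelium.

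Library totals ran from 15636378 to 18396725 counts, so that 1 count was worth 0.0458 to 0.0669 CPM. Levels are CPM (counts scaled to library size) after scaling by trimmed mean of M values (TMM) unless FPKM, which also divides by gene length, is named. The libraries held the defining transcripts of kidney: the summed level of 12 proximal tubule markers was 36784 to 45289 CPM in the 18 mo mice and 41702 to 47526 CPM in the 21 mo/O304 mice. In the 21 mo group the sum was 36124, 11277 and 2387 CPM in replicates 1, 2 and 3. A single gene, Kap, gave 17968 to 24573 CPM of the sum at 18 mo and 18932, 2627 and 175 CPM in the 21 mo mice. The biological coefficient of variation was 39.3% among those saline mice, 16.7% among the younger mice and 18.9% among the mice given O304. Replicate 1 of the 21 mo group lay close to the other groups in most of the genes described here, so the main counts of genes are given with and without it. That choice used the levels of these same genes. Small p-values and groups without overlap are therefore partly built in without replicate 1 and are no separate support. The labels do not say what a replicate number shares across groups. The p-values of the main test set a group difference against the spread between these mice, estimated over all 9 libraries.

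In the 21 mo vs 18 mo comparison all 10 genes had a higher fitted level at 21 months, by 2.00-fold for Krt7 to 101-fold for Krt19. Their median log2 fold change was 3.55, beside 0.03 over all 15902 genes tested. The injury markers had a median of 3.64 and the keratins a median of 3.45. The 3 saline mice differed widely among themselves. Replicates 2 and 3 carried the high levels of every gene but Krt7, which was high in replicate 3 alone, and replicate 1 was within or close to the range of the 18 mo mice.

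By edgeR's quasi-likelihood test with Benjamini-Hochberg adjustment, 0 of the 10 genes passed an adjusted p of 0.05 at 21 months, where 0.0189% of all genes tested passed as higher. At an unadjusted p under 0.05, 9 of the 10 passed as higher, all but Krt7, against 14% of all genes. DESeq2 called 8 of the 10 higher, all but Krt7 and Krt8, against 6.6% of genes. Without replicate 1 of the 21 mo group, edgeR called all 10 higher, with adjusted p from 0.00107 to 0.0442, against 13.6% of genes. Without replicate 2 or replicate 3 it called 0, against 0.00614% and 0.378% of genes. Voom with sample quality weights, which lets a library that stands apart count less, called all 10 against 26.3% of genes, and edgeR on every gene with at least 1 count called 7 against 1.43%. The 3 saline mice all lay above the 3 younger mice in 6 genes (Lcn2, Spp1, Vcam1, Cd44, Krt19 and Krt20), where 13.5% of all genes did so. Without replicate 1 that count was 9, all but Krt7, against 27.5% of genes. It was 6 without replicate 2 and 6 without replicate 3, against 16.1% and 18.9% of genes.

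**Figure D1:**
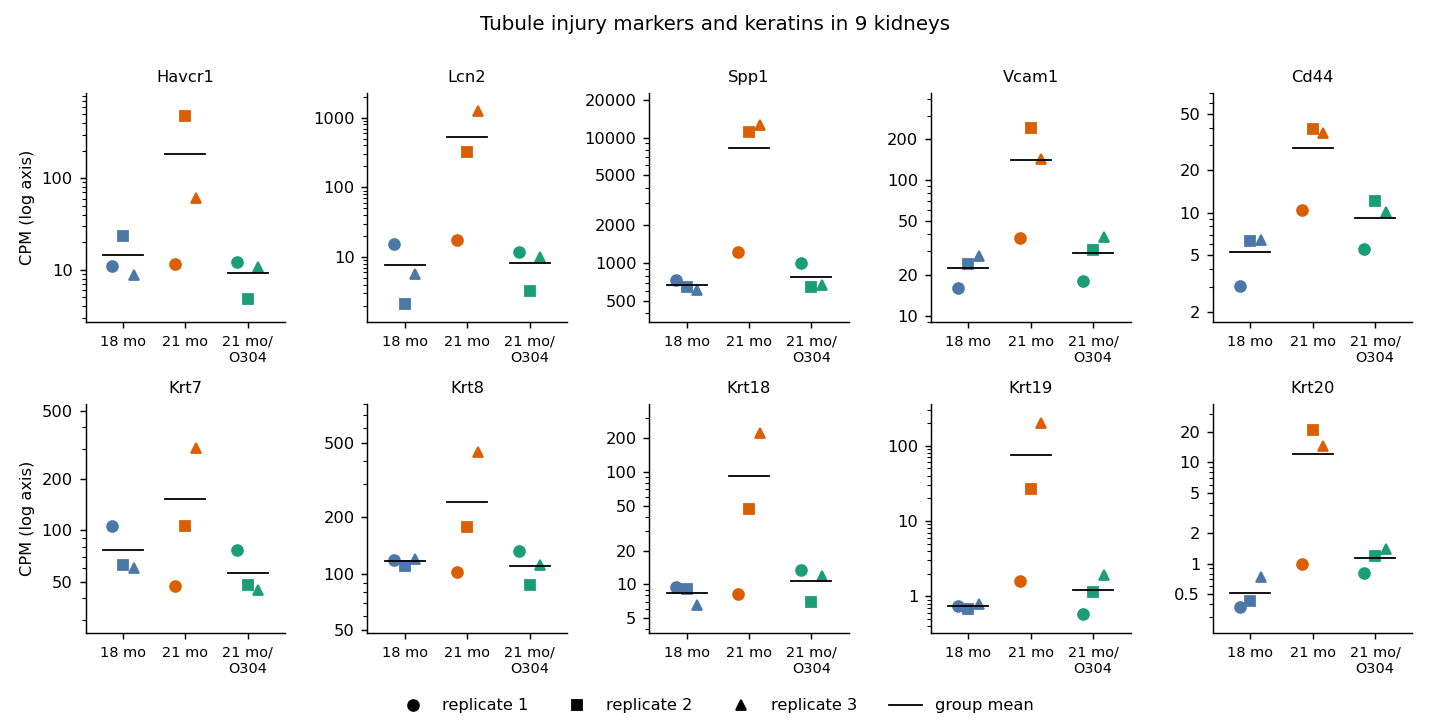
Level of each of the 10 genes in CPM (log axis) in the 9 kidneys. Points are single mice, with the symbol giving the replicate number, and lines are group means. In the 21 mo group Spp1 was 1235, 11162 and 12555 CPM in replicates 1 to 3, while all 6 mice of the other groups lay between 614 and 1002 CPM.

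Havcr1 encodes kidney injury molecule 1, a receptor through which injured proximal tubule cells take up dying neighbours, and it is the most used of the proximal tubule injury markers. The gene lies on chromosome 11 from 46735080 to 46779578, plus strand (GRCm38). It measured 10.9, 23.5 and 8.71 CPM in 18 mo replicates 1 to 3, 11.6, 475 and 61.2 CPM in the 21 mo mice and 12.04, 4.83 and 10.7 CPM in the 21 mo/O304 mice. Replicate 2 of the 21 mo group stood highest by far, replicate 3 was next, and replicate 1 fell inside the 18 mo range, so the groups overlapped. The 21 mo vs 18 mo log2 fold change was 3.67 (SE 1.14, edgeR adjusted p = 0.0997), and it was 4.24 (SE 0.80, edgeR adjusted p = 0.00993) without 21 mo replicate 1.

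Lcn2 encodes neutrophil gelatinase-associated lipocalin, a secreted protein that binds bacterial iron carriers and is released by injured distal and collecting duct cells as well as by neutrophils. The gene lies on chromosome 2 from 32384633 to 32388252, minus strand. It measured 15.4, 2.10 and 5.71 CPM in the 18 mo mice, 17.5, 323 and 1258 CPM in the 21 mo mice and 11.8, 3.22 and 9.996 CPM in the 21 mo/O304 mice. All 3 saline mice lay above all 6 others, but replicate 1 did so by a small margin. The log2 fold change of 6.10 (SE 1.44, edgeR adjusted p = 0.0711) ranked 7 from the top among all genes tested. Neutrophil markers were also higher in the saline mice: their summed level over 8 genes was 7.02 to 13.0 CPM at 18 mo, 68.0, 20.9 and 56.1 CPM in 21 mo replicates 1 to 3 and 14.5 to 23.2 CPM under O304. S100a8, one of the 2 most abundant of these, had 67, 44 and 70 counts in the 18 mo mice, 351, 117 and 465 counts in the 21 mo mice and 67, 59 and 101 counts in the 21 mo/O304 mice. S100a9, its partner in a calcium-binding pair, had 93, 30 and 97, then 369, 145 and 452, then 112, 75 and 166 counts. Ly6g had at most 4 counts in any library, Camp at most 10 and Ngp at most 33. Of the 8, 5 passed the filter, Retnlg and Cxcr2 only with the help of the 21 mo libraries, and no count of calls is given for this list.

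Spp1 encodes osteopontin, a secreted phosphoprotein of matrix and urine that distal tubules make at rest and that binds integrins and Cd44. The gene lies on chromosome 5 from 104435118 to 104441050, plus strand, and overlaps the predicted gene Gm42793, which had at most 177 counts in any library. Spp1 measured 742, 646 and 614 CPM in the 18 mo mice, 1235, 11162 and 12555 CPM in the 21 mo mice and 1002, 649 and 676 CPM in the 21 mo/O304 mice. The 3 saline mice lay above all the others, and replicates 2 and 3 were 16.7 and 18.8 times the 18 mo mean. Spp1 had a log2 fold change of 3.64 (SE 0.75, edgeR adjusted p = 0.0626).

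Per length, Spp1 was the highest of the 10 genes in every library. Its FPKM was 361 to 431 in the 18 mo mice, 726, 6569 and 7330 in the 21 mo mice and 382 to 590 in the 21 mo/O304 mice. In 21 mo replicates 2 and 3 it ranked 6 and 5 among all genes by FPKM and took 1.26% and 1.504% of all counts. Its rank was 88 to 109 in the 18 mo mice. Lcn2 reached rank 82 by FPKM in 21 mo replicate 3, and Havcr1 reached rank 186 in 21 mo replicate 2.

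Vcam1 encodes a surface adhesion molecule that binds the leukocyte integrin VLA-4. It is made by activated endothelium and by tubule cells that have not recovered from injury. The gene lies on chromosome 3 from 116109949 to 116129688, minus strand. It measured 16.2, 24.1 and 27.4 CPM in the 18 mo mice, 37.5, 245 and 143 CPM in the 21 mo mice and 18.1, 30.5 and 38.1 CPM in the 21 mo/O304 mice. The saline mice lay above the younger mice, and replicate 1 was level with the highest O304 mouse. Its fitted log2 fold change was 2.65 (SE 0.59, edgeR adjusted p = 0.0679). The summed level of 7 endothelial markers was 252 to 426 CPM at 18 mo, 360, 228 and 196 CPM in the saline mice and 303 to 576 CPM under O304. All 7 had a lower fitted level at 21 months, 0 of them at an unadjusted p under 0.05 in edgeR, where 12% of all genes were. The part of endothelium in the Vcam1 level was not tested.

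Cd44 encodes the main receptor for the matrix sugar hyaluronan and is also a receptor for osteopontin. Leukocytes carry it, and tubule cells gain it on injury. The gene lies on chromosome 2 from 102811141 to 102901665, minus strand. It measured 3.03, 6.35 and 6.45 CPM in the 18 mo mice, 10.4, 39.0 and 36.9 CPM in the 21 mo mice and 5.52, 12.1 and 10.1 CPM in the 21 mo/O304 mice. The saline mice lay above the younger mice, and replicate 1 fell among the O304 mice. For Cd44 the log2 fold change was 2.45 (SE 0.53, edgeR adjusted p = 0.0631). The summed level of 9 macrophage markers was 315 to 524 CPM at 18 mo, 794, 1206 and 3649 CPM in the saline mice and 596 to 620 CPM under O304, with 8 of 9 higher at 21 months at an unadjusted p under 0.05, where 14% of all genes were. The part of macrophages in the Cd44 and Spp1 levels, and of neutrophils in Lcn2, was not tested, and in bulk tissue fewer cells of a type cannot be told apart from less RNA per cell.

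Krt7, a type II keratin of ducts, lies on chromosome 15 from 101411043 to 101430313, plus strand. It measured 106, 62.8 and 60.4 CPM in the 18 mo mice, 47.6, 105 and 304.1 CPM in the 21 mo mice and 76.8, 48.0 and 44.9 CPM in the 21 mo/O304 mice. Replicate 3 of the saline mice stood above all others, replicate 2 was level with the highest 18 mo mouse and replicate 1 was below all 3 of them. The log2 fold change was 1.00 (SE 0.58, edgeR adjusted p = 0.296). It was −0.01 without 21 mo replicate 3, so the direction rested on that mouse.

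Krt8, the general type II keratin of simple epithelium, lies on chromosome 15 from 101996698 to 102004482, minus strand. It measured 119, 110 and 121 CPM in the 18 mo mice, 103, 179 and 445 CPM in the 21 mo mice and 132, 86.9 and 111 CPM in the 21 mo/O304 mice. The 18 mo mice lay close together, and saline replicates 2 and 3 were above all 6 mice of the other groups while replicate 1 was below the 18 mo mice. Krt8 had a log2 fold change of 1.06 (SE 0.45, edgeR adjusted p = 0.178).

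Krt18, the type I partner of Krt8, is its neighbour on chromosome 15, from 102028180 to 102032027 on the plus strand. It measured 9.54, 9.18 and 6.62 CPM in the 18 mo mice, 8.29, 46.9 and 222 CPM in the 21 mo mice and 13.4, 6.97 and 11.8 CPM in the 21 mo/O304 mice. Saline replicates 2 and 3 were 5.56 and 26.3 times the 18 mo mean, and replicate 1 lay inside the 18 mo range. For Krt18 the log2 fold change was 3.45 (SE 0.95, edgeR adjusted p = 0.0847).

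Krt19, the shortest keratin and one without a tail domain, lies on chromosome 11 from 100140810 to 100148665, minus strand. It measured 0.743, 0.678 and 0.792 CPM in the 18 mo mice, which were 12, 11 and 14 counts. It measured 1.61, 26.8 and 198 CPM in the 21 mo mice and 0.582, 1.13 and 1.91 CPM in the 21 mo/O304 mice. All 3 saline mice lay above the younger mice, and replicate 1 fell among the O304 mice. The log2 fold change of 6.66 (SE 1.51, edgeR adjusted p = 0.0691) ranked 4 from the top among all genes tested, from a base of few counts.

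Krt20, the type I keratin of the gut and umbrella cells, lies on chromosome 11 from 99428403 to 99438150, minus strand. It measured 0.372, 0.431 and 0.735 CPM in the 18 mo mice, which were 6, 7 and 13 counts. It measured 1.00, 20.7 and 14.4 CPM in the 21 mo mice and 0.814, 1.19 and 1.40 CPM in the 21 mo/O304 mice. The saline mice lay above the younger mice, and replicate 1 fell among the O304 mice. Krt20 had a log2 fold change of 4.53 (SE 0.94, edgeR adjusted p = 0.0626). By the exact two-sided permutation test over 6 libraries, p was 0.1, the smallest this design allows, for the 6 genes whose groups did not overlap, and 0.2 to 0.7 for Havcr1, Krt18, Krt8 and Krt7.

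The saline mice with high levels did not share the same order of genes. Replicate 2 held the highest Havcr1, Vcam1, Cd44 and Krt20, and replicate 3 held the highest Lcn2, Spp1, Krt7, Krt8, Krt18 and Krt19. Havcr1 was 7.77 times as high in replicate 2 as in replicate 3. In the opposite direction, replicate 3 was 3.90 times replicate 2 for Lcn2, 4.73 times for Krt18 and 7.37 times for Krt19. Spp1 and Cd44 were nearly level between these mice, at 1.12 and 0.944 times. Replicate 1 of the 21 mo group was 0.623 to 2.26 times the 18 mo mean across the 10 genes. It lay above the 18 mo range for Lcn2, Spp1, Vcam1, Cd44, Krt19 and Krt20, within it for Havcr1 and Krt18, and below it for Krt7 and Krt8. These orders are descriptions of single mice and carry no test.

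**Figure D2:**
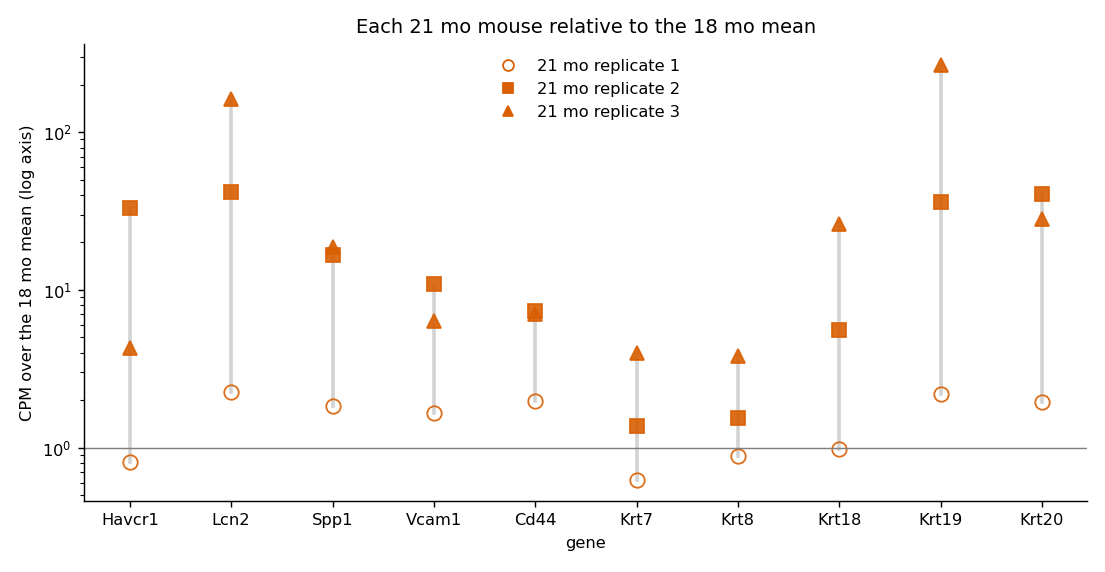
Level of each gene in each 21 mo mouse divided by the mean of the 3 18 mo mice (log axis, ratio of CPM). Replicate 2 was 33.1 times the 18 mo mean for Havcr1 and replicate 3 was 4.26 times, while for Krt19 replicate 2 was 36.4 times and replicate 3 was 268 times.

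The balance of keratin chains also differed between mice on the length-corrected scale. The ratio of type II (Krt7 and Krt8) to type I (Krt18, Krt19 and Krt20) summed FPKM was 10.5, 9.31 and 13.0 in the 18 mo mice, 8.28, 1.83 and 1.01 in the 21 mo mice and 7.80, 8.42 and 6.33 in the 21 mo/O304 mice. Type II transcripts exceeded type I by several times in 7 of the 9 kidneys, and the sums came close to equal in 21 mo replicate 3. The Krt8 to Krt18 ratio of FPKM moved the same way, from 9.18, 8.78 and 13.4 in the 18 mo mice to 9.10, 2.79 and 1.47 in the 21 mo mice, and it was 7.25, 9.15 and 6.91 in the 21 mo/O304 mice. Krt19 made up 5.24% to 7.89% of type I FPKM in the 18 mo mice and 12.1%, 25.0% and 39.7% in the 21 mo mice. Krt20 made up 18.6% of it in 21 mo replicate 2 and 2.79% in replicate 3.

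**Figure D3:**
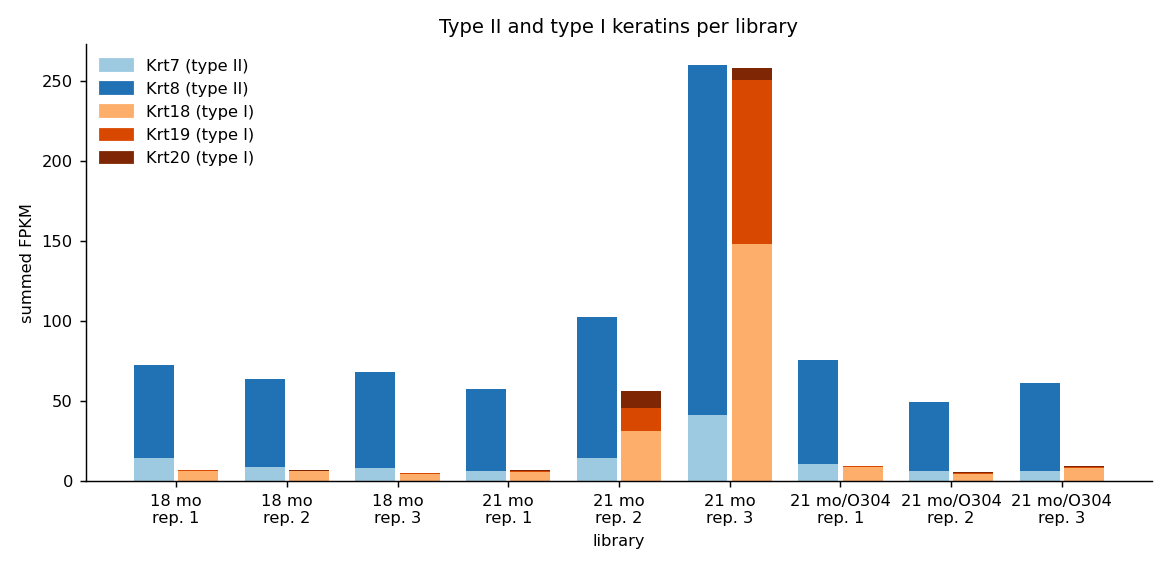
Summed FPKM of the type II keratins (Krt7, Krt8) and the type I keratins (Krt18, Krt19, Krt20) in each of the 9 kidneys. Type I FPKM was 5.25 to 6.93 in the 18 mo mice, and 56.1 and 258 in 21 mo replicates 2 and 3, where type II FPKM was 103 and 260.

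Urothelial markers were high in the same saline mice as the keratins. The summed level of 8 urothelial markers was 10.2 to 15.1 CPM at 18 mo, 12.9, 57.4 and 223 CPM in 21 mo replicates 1 to 3 and 11.7 to 11.9 CPM under O304. Of the 8, 6 passed the filter on low counts, 3 of them (Upk3a, Upk3b and Psca) only with the help of the 21 mo libraries, so no count of calls is given for this list. Upk1b, a uroplakin of the urothelial surface, had 4, 1 and 5 counts at 18 mo and 9, 120 and 1214 counts at 21 mo, and Upk3a, another uroplakin, had 0, 2 and 8 against 12, 212 and 1126 counts. The order of the urothelial sum over the saline mice was that of Krt7, Krt8, Krt18 and Krt19, with replicate 3 highest, and not that of Krt20. This order was not particular to urothelium: the fibroblast and macrophage sums, Lcn2 and Spp1 had it too. The 7 collecting duct principal cell markers summed to 389 to 668 CPM at 18 mo, 428, 696 and 364 CPM at 21 mo and 265 to 396 CPM under O304, with Avpr2 at 0 to 4 counts throughout. The 6 fibroblast markers summed to 138 to 216, then 112, 467 and 1068, then 88.9 to 224 CPM. The part of these cell types in the keratin levels was not tested.

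**Figure D4:**
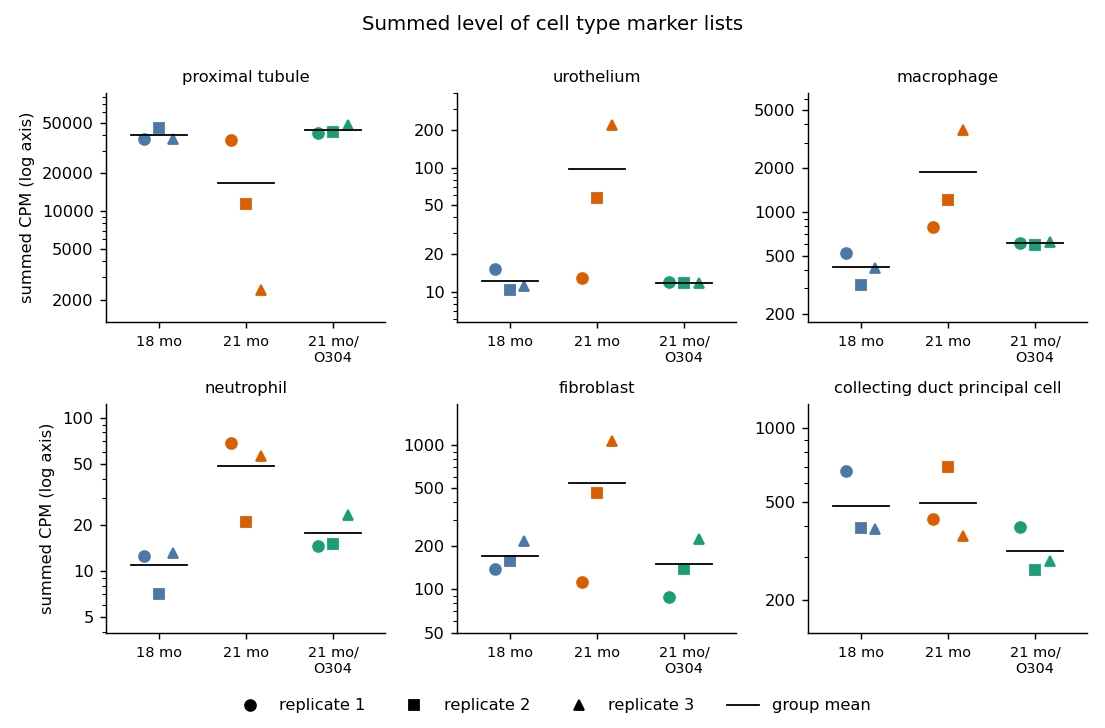
Summed CPM (log axis) of 6 cell type marker lists in the 9 kidneys, with points for single mice and lines for group means. In the 21 mo group the proximal tubule sum was 36124, 11277 and 2387 CPM in replicates 1 to 3, while the urothelial sum was 12.9, 57.4 and 223 CPM.

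Proximal tubule markers were low in the saline mice in which the injury markers were high. Of the 12 proximal tubule markers tested, 11 had a lower fitted level at 21 months, 3 of them at an unadjusted p under 0.05 where 12% of all genes were. Kap, an androgen-dependent proximal tubule transcript and the largest part of the sum at 18 mo, was 17968 to 24573 CPM at 18 mo and 18932, 2627 and 175 CPM in the 21 mo mice. Aqp1 fell less, at 804 to 1324, then 1480, 782 and 331 CPM. Slc5a12 was the marker without a lower fitted level, at 80.0 to 254, then 252, 107 and 92.5 CPM. Its log2 fold change was 0.08 (SE 0.51). Havcr1 was lower in 21 mo replicate 3 than in replicate 2, and the proximal tubule sum was lower there too, at 2387 against 11277 CPM. These are single mice, and a link between the levels was not tested.

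In the 21 mo/O304 vs 21 mo comparison all 10 genes had a lower fitted level under O304, with a median log2 fold change of −3.26 beside −0.02 over all genes tested. The log2 fold change was −4.31 (SE 1.18) for Havcr1, −6.00 (SE 1.43) for Lcn2 and −3.42 (SE 0.74) for Spp1. It was −2.30 (SE 0.58) for Vcam1 and −1.64 (SE 0.51) for Cd44, the surface adhesion genes. Among keratins it was −1.43 (SE 0.58) for Krt7, −1.14 (SE 0.45) for Krt8, −3.11 (SE 0.93) for Krt18, −5.97 (SE 1.43) for Krt19 and −3.40 (SE 0.87) for Krt20. The summed level of 6 adipocyte markers set the O304 group apart in the other direction, at 149, 10.1 and 123 CPM in its replicates 1 to 3, against 0.123 to 8.60 CPM in the 18 mo mice and 1.47 to 6.09 CPM in the saline mice. Their part in the result was not tested.

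By edgeR's quasi-likelihood test 0 of the 10 passed an adjusted p of 0.05 under O304, where 0% of all genes tested passed as lower, and the adjusted p of the 10 ran from 0.175 to 0.220. All 10 passed as lower at an unadjusted p under 0.05, against 12.4% of all genes, and DESeq2 called 8 of them, all but Krt7 and Krt8, against 3.65% of genes. Every O304 mouse lay below every saline mouse for Lcn2 and Spp1 only, where 10.5% of all genes did so. Without 21 mo replicate 1 the groups did not overlap for any of the 10, against 26.2% of genes, and edgeR called all 10 lower with adjusted p from 0.00178 to 0.0223, against 12.6% of genes. Without replicate 2 or replicate 3 it called 0, against 0% and 0.0062% of genes. The genes without overlap were then 2 and 2, against 13.2% and 14.1% of genes. Voom with sample quality weights called all 10, against 19.8% of genes, and edgeR on every gene with at least 1 count called 0, against 0.0283%. By the exact two-sided permutation test p was 0.1, the smallest possible, for Lcn2 and Spp1, and 0.2 to 0.3 for the other 8.

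**Figure D5:**
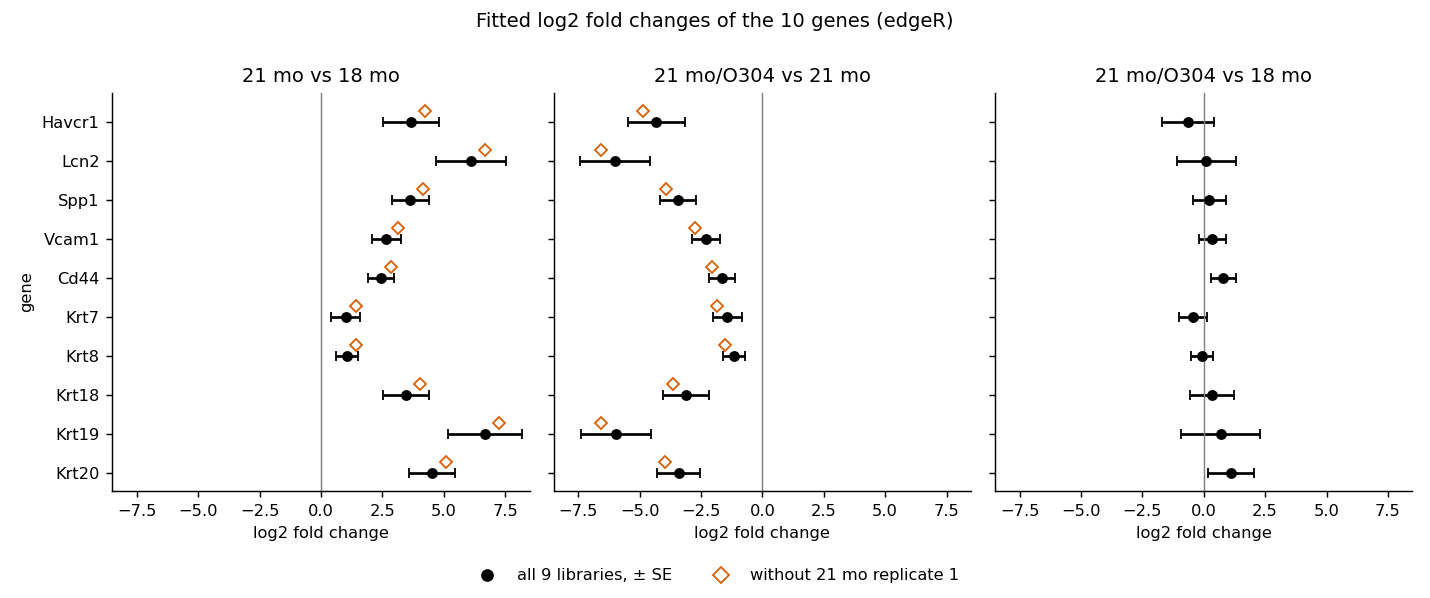
Fitted log2 fold change of each gene in the 3 comparisons, with bars of 1 SE either side from the edgeR fit over 9 libraries. Open diamonds are the fit without 21 mo replicate 1, for the comparisons that hold the 21 mo group. The 21 mo vs 18 mo values ran from 1.00 to 6.66, the 21 mo/O304 vs 21 mo values from −6.00 to −1.14 and the 21 mo/O304 vs 18 mo values from −0.64 to 1.12.

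In the 21 mo/O304 vs 18 mo comparison, whose groups hold no saline mouse, the median log2 fold change of the 10 was 0.28, beside 0.00 over all genes. The spread was still estimated over all 9 libraries, so the saline mice enter its SEs, p-values and intervals. Over 19 alternatives, a fit of only these 6 libraries among them, the count of the 10 past the threshold stayed at 0. By edgeR 0 of the 10 passed an adjusted p of 0.05, where 0% of all genes did in either direction, and 0 passed at an unadjusted p under 0.05, against 4.33% of genes as higher and 5.33% as lower. DESeq2 called 0 of them as well, against 0.286% of genes as higher and 0.499% as lower. The edgeR adjusted p ran from 0.661 to 0.989.

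The intervals do not show that the O304 and 18 mo mice were alike. The 95% interval of the log2 fold change ran from −3.06 to 1.77 for Havcr1, −2.61 to 2.83 for Lcn2, −2.93 to 4.31 for Krt19 and −0.99 to 3.24 for Krt20. It was narrowest for Krt8, at −1.08 to 0.92, and for Cd44 it was −0.37 to 1.97. Krt20 was the only gene whose groups did not overlap, at 0.814 to 1.40 CPM under O304 against 0.372 to 0.735 CPM at 18 mo, where 13.2% of all genes did so as higher. All 3 O304 mice lay within the 18 mo range for Lcn2. For Vcam1, Cd44, Krt18 and Krt19, 2 of the 3 O304 mice lay above the 18 mo range, with the other Krt19 value below it, and for Krt7, 2 of 3 lay below the range.

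Other genes of tubule injury and repair had the same direction at 21 months: 30 of the 32 listed were higher, 24 of them at an unadjusted p under 0.05 and 0 after edgeR's adjustment, with a median log2 fold change of 2.02, where 14% of all genes passed at that unadjusted level and the median over all genes was 0.03. Without 21 mo replicate 1 edgeR called 28 of the 32 higher, against 13.6% of all genes. Mmp7 was the one of the 32 that passed the filter only with the help of the 21 mo libraries. Prom1, a surface protein of progenitor-like and regenerating tubule cells, was 51.0 to 71.7 CPM at 18 mo, 162, 170 and 250 CPM at 21 mo and 50.0 to 73.4 CPM under O304. All 3 saline mice lay above the others, replicate 1 included, and the log2 fold change was 1.68 (SE 0.22, edgeR adjusted p = 0.0606). Myc, a growth transcription factor, was 3.20 to 5.20, then 10.03, 25.5 and 23.4, then 6.62 to 7.70 CPM, with a log2 fold change of 2.19 (SE 0.35). C3, the central complement protein, was 18.2 to 38.6, then 73.8, 809 and 1220, then 49.2 to 75.6 CPM. Dcdc2a, a doublecortin-domain gene, was 10.3 to 16.6, then 18.4, 84.5 and 113, then 11.3 to 14.2 CPM. Under O304, 30 of the 32 were lower than in the saline mice, 24 at an unadjusted p under 0.05 where 12.4% of all genes were, with a median of −1.80, and edgeR called 26 lower without 21 mo replicate 1, against 12.6% of all genes. The median against the 18 mo mice was 0.13. This list and those below were drawn up with earlier results of these data known. They were read in the same libraries, so their counts are no separate support.

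Genes whose products bind, cut or receive the injury proteins gave a smaller and mixed picture. Of 26 listed, 23 were tested: 18 were higher at 21 months, 10 at an unadjusted p under 0.05, and 5 were lower, 1 at that level, with a median of 0.65. Over all genes 14% were higher and 12% lower at that level. After edgeR's adjustment 0 passed, and without 21 mo replicate 1 there were 8 called higher, against 13.6% of all genes, and 1 lower, against 11.9%. Lyve1 passed the filter only with the help of a 21 mo library. Slc22a17, the cell-surface receptor proposed for lipocalin 2, was the one lower at that level, at 29.8 to 40.9 CPM at 18 mo, 24.8, 14.1 and 14.1 CPM at 21 mo and 21.9 to 24.0 CPM under O304. Its log2 fold change was −0.99 (SE 0.23, edgeR adjusted p = 0.0697), against 6.10 for Lcn2 itself. Adam10, a membrane protease that sheds Cd44 from the cell surface, was 65.3 to 73.8, then 89.6, 108 and 132, then 80.3 to 84.2 CPM. Mmp14, a membrane protease that cuts Cd44, was 16.97 to 19.1, then 15.6, 44.4 and 161, then 12.3 to 13.9 CPM. Msn, which ties the tail of Cd44 to actin, was 155 to 195, then 229, 306 and 357, then 163 to 207 CPM. Hmmr, another hyaluronan receptor and a gene of dividing cells, was 1.55 to 2.03, then 1.07, 8.58 and 5.27, then 0.828 to 1.05 CPM. Under O304, 18 of the 23 were lower than in the saline mice, 9 at an unadjusted p under 0.05, and the median was −0.45. Over all genes 12.4% were lower at that level. Of these 23 genes edgeR called 8 lower, against 12.6% of all genes, and 2 higher, against 10.6%, without 21 mo replicate 1.

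Among 11 desmosome and linker genes that anchor keratin filaments to the cell border, 7 were higher at 21 months, 6 at an unadjusted p under 0.05, and 4 were lower, 1 at that level, with a median of 0.48, beside 14% higher and 12% lower over all genes. None of the 11 passed edgeR's adjusted threshold with all 9 libraries, and 6 did as higher without 21 mo replicate 1, against 13.6% of all genes. Dsg2, a desmosomal cadherin of simple epithelium, was 7.52 to 13.4 CPM at 18 mo, 15.1, 26.0 and 32.9 CPM at 21 mo and 8.11 to 16.9 CPM under O304. Pkp2, a plakophilin of the desmosomal plaque, was 24.4 to 29.8, then 36.1, 37.8 and 39.3, then 26.2 to 35.8 CPM, with no overlap between the 21 mo group and either other group. Of 5 plakin linkers, a group picked outside the naming rule, 4 had a higher fitted level, beside 8387 of all 15902 genes tested. The log2 fold change was 1.94 (SE 0.86) for Ppl, 1.78 (SE 0.74) for Eppk1, 1.19 (SE 0.44) for Dsp and 0.48 (SE 0.28) for Plec. Evpl, envoplakin, was the other plakin, at −0.80 (SE 0.27). The remaining lower linkers were Jup, Pkp3 and Perp, at −0.09, −0.25 and −0.05. Under O304 10 of the 11 were lower than in the saline mice, 5 at an unadjusted p under 0.05 where 12.4% of all genes were. Evpl was the one with a higher fitted level, by 0.79 (SE 0.27) on the log2 scale. It passed as higher at that unadjusted level, where 8.27% of all genes did.

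Of 48 other keratin genes in the table, 4 passed the filter and 0 passed edgeR's adjusted threshold. Krt222 passed the filter only with the help of the 21 mo libraries. Krt10, a type I keratin of differentiating epidermis, was 8.32 to 10.3 CPM at 18 mo, 5.55, 5.85 and 3.89 CPM at 21 mo and 6.86 to 9.61 CPM under O304. It was the one tested keratin with a lower level in all 3 saline mice than in all 6 others, with a log2 fold change of −0.87 (SE 0.23, edgeR adjusted p = 0.0810). Krt23 was 0.622 to 0.924, then 0.201, 3.01 and 3.76, then 0.358 to 1.10 CPM, and Krt222 was 0.495 to 0.986, then 0.733 to 1.25, then 0.358 to 0.891 CPM. Krt80, named outside the rule as the last of the 4, had a log2 fold change of 0.18 (SE 0.32).

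The protein-coding genes most like the 5 injury markers over the 9 libraries, by Pearson's r of log2 CPM with their mean standardised level, were Tmem214 and Ywhah (both r = 0.986), Cd2ap and Klf6 (both 0.980) and Il1rn (0.978). For the 5 keratins they included Pycard (0.996), Tubb2b (0.994), Cldn4 (0.993) and Sfn (0.989). These values describe 9 points that share libraries, and 21 mo replicates 2 and 3 set most of their range. Klf6, a transcription factor gene, was 36.9 to 43.0 CPM at 18 mo, 59.1, 190 and 186 CPM at 21 mo and 34.5 to 51.0 CPM under O304. Cldn4, a tight junction claudin of collecting duct and urothelium, was 14.2 to 14.5, then 11.6, 51.3 and 176, then 10.1 to 18.8 CPM. The genes picked for the injury markers were nearly level between saline replicates 2 and 3 except Il1rn, at 7.62 and 12.5 CPM, while Pycard, Tubb2b, Cldn4 and Sfn were highest in replicate 3.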

How the data were processed

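Kidney RNA of 9 mice was sequenced from NEBNext Ultra libraries. Per the submitters' processing notes, reads were aligned with HISAT2 2.0.5 to GRCm38 (mm10) and counted with featureCounts 1.5.0-p3; strand and multi-mapping settings are not given in the sources used here. The deposited table holds raw counts per gene, and FPKM that the authors computed from those counts and gene length. It also holds the authors' group means and their DESeq2 1.20.0 fold changes and p-values for 2 comparisons, which were not used.

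Counts were filtered with filterByExpr (minimum count 10, minimum total 15), scaled by TMM and tested in edgeR 4.0.16 (glmQLFit, glmQLFTest; R 4.3.3) with 1 model over all 9 libraries and no block, two-sided, with Benjamini-Hochberg adjustment over 15902 genes and a threshold of 0.05. Log2 CPM used a prior count of 2. Single genes also had an exact permutation test, whose smallest p is 0.1. The scripts were tested on simulated data. Alternatives were DESeq2 1.42.0, limma 3.58.1 (voom with quality weights, and trend on log2(FPKM + 1) or + 0.1), other filters and scalings, 6-library fits, a replicate block and leaving out each library.

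All 10 genes were named in full. From each further list, the genes past the threshold (at most 4), or else the 3 with the smallest p in each of the 21 mo vs 18 mo and 21 mo/O304 vs 21 mo comparisons, were named, and the 5 genes most correlated with the injury markers and with the keratins, of which 1 is not reported here. The genes and lists were chosen with earlier results of these data known. Coordinates are those of the deposited table. The depth, 15636378 to 18396725 counts per library, leaves Krt19 and Krt20 near 10 counts in the 18 mo group, and counting intervals would cover counting error only.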

Additional observations from a re-analysis of the deposited data

How the results depend on the processing

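Of 19 alternatives, those that changed the count of the 10 genes past the threshold were DESeq2, with 8 in the 21 mo vs 18 mo and 8 in the 21 mo/O304 vs 21 mo comparison, voom with quality weights, with 10 and 10, and testing every gene with at least 1 count, with 7 in the first. Leaving out 1 library gave 0 to 10 in each of these comparisons, and only leaving out 21 mo replicate 1 gave more than 0. Over all genes the count in 21 mo vs 18 mo was 3, and it was 2023 by DESeq2, 576 with every gene of at least 1 count, 8409 by voom, 0 with 6 libraries, 0 with the replicate block and 0 to 4186 leaving out 1 library. In 21 mo/O304 vs 21 mo it was 0, then 896, 17 and 6528 by the first 3 of these, 1 by limma-trend on every gene above 0, and 0 to 3808 leaving out 1 library. In 21 mo/O304 vs 18 mo it was 0, then 118 by DESeq2, 415 by voom, 22 with 6 libraries, 5 by limma-trend on every gene above 0, and 0 to 12 leaving out 1 library. The cause of these shifts was not tested. The alternatives for genes without overlap were added after seeing the data. When 1 library was left out, that count ran from 2 to 10 in 21 mo/O304 vs 21 mo. The 10 came without 21 mo replicate 1, where 26.2% of all genes were lower without overlap. In 21 mo/O304 vs 18 mo it ran from 1 to 5. For that range the share over all genes was not worked out, so it is no result about the 10 genes.

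Directions held under every alternative except some that left out 1 library. The log2 fold change of Krt7 in 21 mo vs 18 mo then ran from −0.014 (without 21 mo replicate 3) to 1.44. In 21 mo/O304 vs 18 mo that of Lcn2 ran from −0.34 to 1.09, below 0 without 18 mo replicate 2 (−0.34) or 3 (−0.06) or O304 replicate 1 (−0.23) or 3 (−0.02). That of Spp1 ran from −0.0079 (without O304 replicate 1) to 0.34 and that of Krt8 up to 0.072 (without O304 replicate 2). Same-numbered libraries deviated together by r of −0.13 to 0.17, which does not pair them, and the block called 0 of the 10 genes in each comparison. The counts of the further lists without 21 mo replicate 1 were also added after seeing the data. A minimum of 10 counts in every library left no value for Krt20.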

Other observations

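Of 48 other keratin genes, 44 were left out of the tests because too few libraries held them, and the highest of these were found in 21 mo replicate 3 (chosen after their values were seen). Krt15, a keratin of basal cells in layered epithelia, had 0, 0 and 0 counts in the 18 mo mice, 0, 164 and 1948 counts in the 21 mo mice and 0, 1 and 0 counts in the 21 mo/O304 mice. Krt5, the main type II keratin of basal cells, had 3, 1 and 8 counts, then 0, 74 and 1103, then 2, 1 and 3. Krt14, its type I partner, had 0 counts in all 3 18 mo mice, 0, 39 and 746 counts in the 21 mo mice and 0 counts in all 3 21 mo/O304 mice. In 21 mo replicate 3 these were 89.2, 50.5 and 34.2 CPM, and that mouse also had the highest urothelial marker sum, at 223 CPM. These counts came from 1 or 2 mice, and the genes were not tested with all 9 libraries.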
